A study of Homo sapiens with 60 samples.

Results

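ID1, ID2, ID3, ID4, ATOH8, BMP6, SMAD6, SMAD7, BAMBI and GREM1 are 10 genes that either answer bone morphogenetic protein (BMP) signalling or adjust its strength. They were followed here in A549 cells, an established human lung adenocarcinoma line, after 24 h with hot-water plant extracts. The genes were found by their symbols, and 10 of 10 were present among the 60675 genes of the expression table. They were chosen by earlier log2 fold changes of these data, from the top dose of Menthae Herba and Saposhnikoviae Radix against the lowest dose and against vehicle. In those results ATOH8, ID4, ID2 and BMP6 stood among the lower genes of Saposhnikoviae Radix and GREM1 among the higher genes of Menthae Herba, so the values of both herbs are described below without a test.

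The 60 libraries held 2 single herbs, Menthae Herba and Saposhnikoviae Radix, and 4 decoctions of several herbs, Soyo-san, Guibi-tang, Okbyeongpung-san and Saengmaek-san, each at labelled doses of 500, 100 and 20 µg/mL with 3 libraries per dose. Soshiho-tang, a further decoction, had 1 library per dose, and the vehicle group had 3 libraries. Every group was the same line at the same time point. The text of the series states that an extract with a 20% inhibitory concentration below the top dose received that concentration as its top dose, with dilutions below it, so a label of 500 may stand for a lower dose. For the vehicle, the sample labels give 0.1% DMSO and the series text gives 2%. The sample labels give no DMSO percentage for the extract libraries.

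BMP ligands bind paired type I and type II receptor kinases, which phosphorylate SMAD1, SMAD5 and SMAD9. These enter the nucleus with SMAD4 and induce the ID genes within hours in most cell types, together with brakes on the pathway itself, among them SMAD6, SMAD7 and BAMBI. ID proteins are helix-loop-helix proteins without a DNA-binding region: they hold E proteins such as TCF3, TCF4 and TCF12 away from DNA and so restrain differentiation. In the lung the pathway is known for its part in airway and alveolar development, and in the liver BMP6 sets iron balance.

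Promoter sequences are shown for the members that fell at 500 against 20 of a decoction (ID2, ID3, ID4 and ATOH8) and for GREM1, which rose in Soyo-san against vehicle, because members that move together invite a look at what lies upstream of them. RefSeq on GRCh38.p14 gave 13 start-site windows for the 10 genes, and the 250 bases upstream of a start are printed 5′ to 3′. Capitals mark each match, on either strand, to 3 short motifs: GGCGCC, a GC-rich element that SMAD proteins bind and that reads the same on both strands; CAGAC, the SMAD box, which appears as GTCTG where it lies on the other strand; and GCGTG, the core of the element bound by the aryl hydrocarbon receptor (AhR), which appears as CACGC there. No match overlapped a match to another motif. Of 35116 RefSeq windows of the same length, 16.4% held GGCGCC, 38.0% held CAGAC and 32.2% held GCGTG. The windows are chr2:8681806-8682055 (+ strand) for ID2, chr1:23559502-23559751 (− strand) for ID3, chr6:19837120-19837369 (+ strand) for ID4, chr2:85753741-85753990 (+ strand) for ATOH8 and, for the first and second start of GREM1, chr15:32717754-32718003 and chr15:32718234-32718483 (+ strand).
ID2: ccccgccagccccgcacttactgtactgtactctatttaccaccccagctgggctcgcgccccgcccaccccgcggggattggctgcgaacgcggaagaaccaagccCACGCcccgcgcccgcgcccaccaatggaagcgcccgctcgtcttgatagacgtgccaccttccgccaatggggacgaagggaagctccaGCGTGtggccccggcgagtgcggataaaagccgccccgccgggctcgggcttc
ID3: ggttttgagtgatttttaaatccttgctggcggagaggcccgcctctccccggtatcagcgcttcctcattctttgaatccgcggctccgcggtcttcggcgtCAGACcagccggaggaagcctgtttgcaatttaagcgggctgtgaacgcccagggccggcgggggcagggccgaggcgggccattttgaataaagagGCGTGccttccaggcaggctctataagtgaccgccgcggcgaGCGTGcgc
ID4: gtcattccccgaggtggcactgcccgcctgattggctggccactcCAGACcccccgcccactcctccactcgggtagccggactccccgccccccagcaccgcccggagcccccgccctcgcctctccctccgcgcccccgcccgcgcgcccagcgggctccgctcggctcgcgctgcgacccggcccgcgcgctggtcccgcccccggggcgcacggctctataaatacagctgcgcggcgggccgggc
ATOH8: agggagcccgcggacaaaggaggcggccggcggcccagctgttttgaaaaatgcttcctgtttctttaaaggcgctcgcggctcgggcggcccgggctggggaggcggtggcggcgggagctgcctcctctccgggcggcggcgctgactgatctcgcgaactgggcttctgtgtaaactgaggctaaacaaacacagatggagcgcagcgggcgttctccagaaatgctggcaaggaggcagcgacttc
GREM1 first start: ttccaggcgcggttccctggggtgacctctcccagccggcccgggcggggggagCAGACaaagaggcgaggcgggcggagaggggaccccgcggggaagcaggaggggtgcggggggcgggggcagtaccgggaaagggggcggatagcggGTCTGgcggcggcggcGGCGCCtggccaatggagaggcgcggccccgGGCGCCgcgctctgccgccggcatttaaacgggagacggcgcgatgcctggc
GREM1 second start: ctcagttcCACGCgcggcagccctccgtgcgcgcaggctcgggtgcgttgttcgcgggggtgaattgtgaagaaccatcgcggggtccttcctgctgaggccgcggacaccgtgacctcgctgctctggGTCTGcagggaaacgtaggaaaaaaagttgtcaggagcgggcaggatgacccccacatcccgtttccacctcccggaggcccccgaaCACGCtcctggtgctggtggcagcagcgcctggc

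The 6 windows did not share 1 motif. ID2 held 2 matches to GCGTG and none to the SMAD motifs. ID3 held 1 match to CAGAC and 2 to GCGTG, and ID4 held 1 match to CAGAC. The window of ATOH8 held no match to any of the 3. The first GREM1 window held 2 matches to GGCGCC and 2 to CAGAC, and the second held 1 to CAGAC and 2 to GCGTG. Among the windows not printed, BAMBI held 3 matches to GGCGCC and 2 to CAGAC, ID1 held 2 to GCGTG, and those of BMP6 and SMAD6 held none. Of the 3 windows of SMAD7, 1 held 2 matches to CAGAC, 1 held 1 match to CAGAC and 2 to GCGTG, and 1 held none. A match describes these letters only, and binding was not measured.

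All 10 genes were expressed in every library. Expression is given as CPM, the count of a gene per 1000000 counts of its library; library totals ran from 18330643 to 35308834 counts. Per kilobase of exon, ID1 had the highest median level over the 60 libraries (132 CPM per kb), followed by ID3 (82.3 CPM per kb) and ID2 (48.0 CPM per kb). BAMBI, a decoy receptor that lacks a kinase, followed at 8.96 CPM per kb and SMAD6, an inhibitory SMAD, at 8.70 CPM per kb. BMP6, the ligand, had a median of 5.01 CPM per kb and ID4 one of 5.00 CPM per kb. SMAD7, the second inhibitory SMAD, reached 3.86 CPM per kb, ATOH8, a basic helix-loop-helix factor, 2.54 CPM per kb, and GREM1, a secreted protein that captures BMP ligands, 0.419 CPM per kb. The level of ID4 in a single library rested on 142 to 436 counts and that of GREM1 on 86 to 306 counts, so these genes carry the largest counting error of the 10. Bulk RNA was measured, so fewer cells of a kind and less RNA per cell cannot be told apart.

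The same library was lowest of all 60 for 6 of these genes. Replicate 1 of Soyo-san at 500 held the minimum of ID1, ID2, ID3, ID4, ATOH8 and SMAD6. Mitochondrially encoded genes took 19.4% of its counts, against 14.3% in replicate 2 and 15.1% in replicate 3 of that group. CPM is taken over totals that include these counts, so a larger share lowers the CPM of all other genes. Between the extreme libraries GREM1 differed 3.16-fold, ID4 2.69-fold and ATOH8 2.57-fold, and SMAD7 differed 1.36-fold. The spread inside a group was small for the ID genes other than ID1: the median coefficient of variation over groups was 3.87% for ID3, 4.28% for ID2 and 5.14% for ID4, and 9.92% for ID1.

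Libraries changed along the order of their names. From the 32nd of the 60 libraries onward mitochondrially encoded genes took a share of the counts that ran from 12.9 to 22.2%, against 10.7 to 13.9% in the first 31 libraries. Both herbs and the vehicle lay before this step. Every Soyo-san library lay after it, as did those of Soshiho-tang and Okbyeongpung-san, and Saengmaek-san and Guibi-tang lay on both sides. The labels do not say what the step is. Of the epithelial markers KRT8 had a median of 3130 CPM and KRT18 of 2550 CPM, while CDH1 (32 CPM), KRT19 (25.2 CPM) and EPCAM (4.59 CPM) were far lower. Among blood cell markers CD3E, PTPRC and LYZ had medians of 0 CPM, with LYZ up to 1.27 CPM, and CD14 was present in every library at 1.55 to 3.34 CPM. The endothelial markers PECAM1, CDH5 and VWF reached at most 0.28 CPM. The fibroblast markers COL1A2, DCN, LUM and PDGFRA reached at most 0.976 CPM, while COL1A1 stood at 25.9 to 40.7 CPM.

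**Figure D1:**
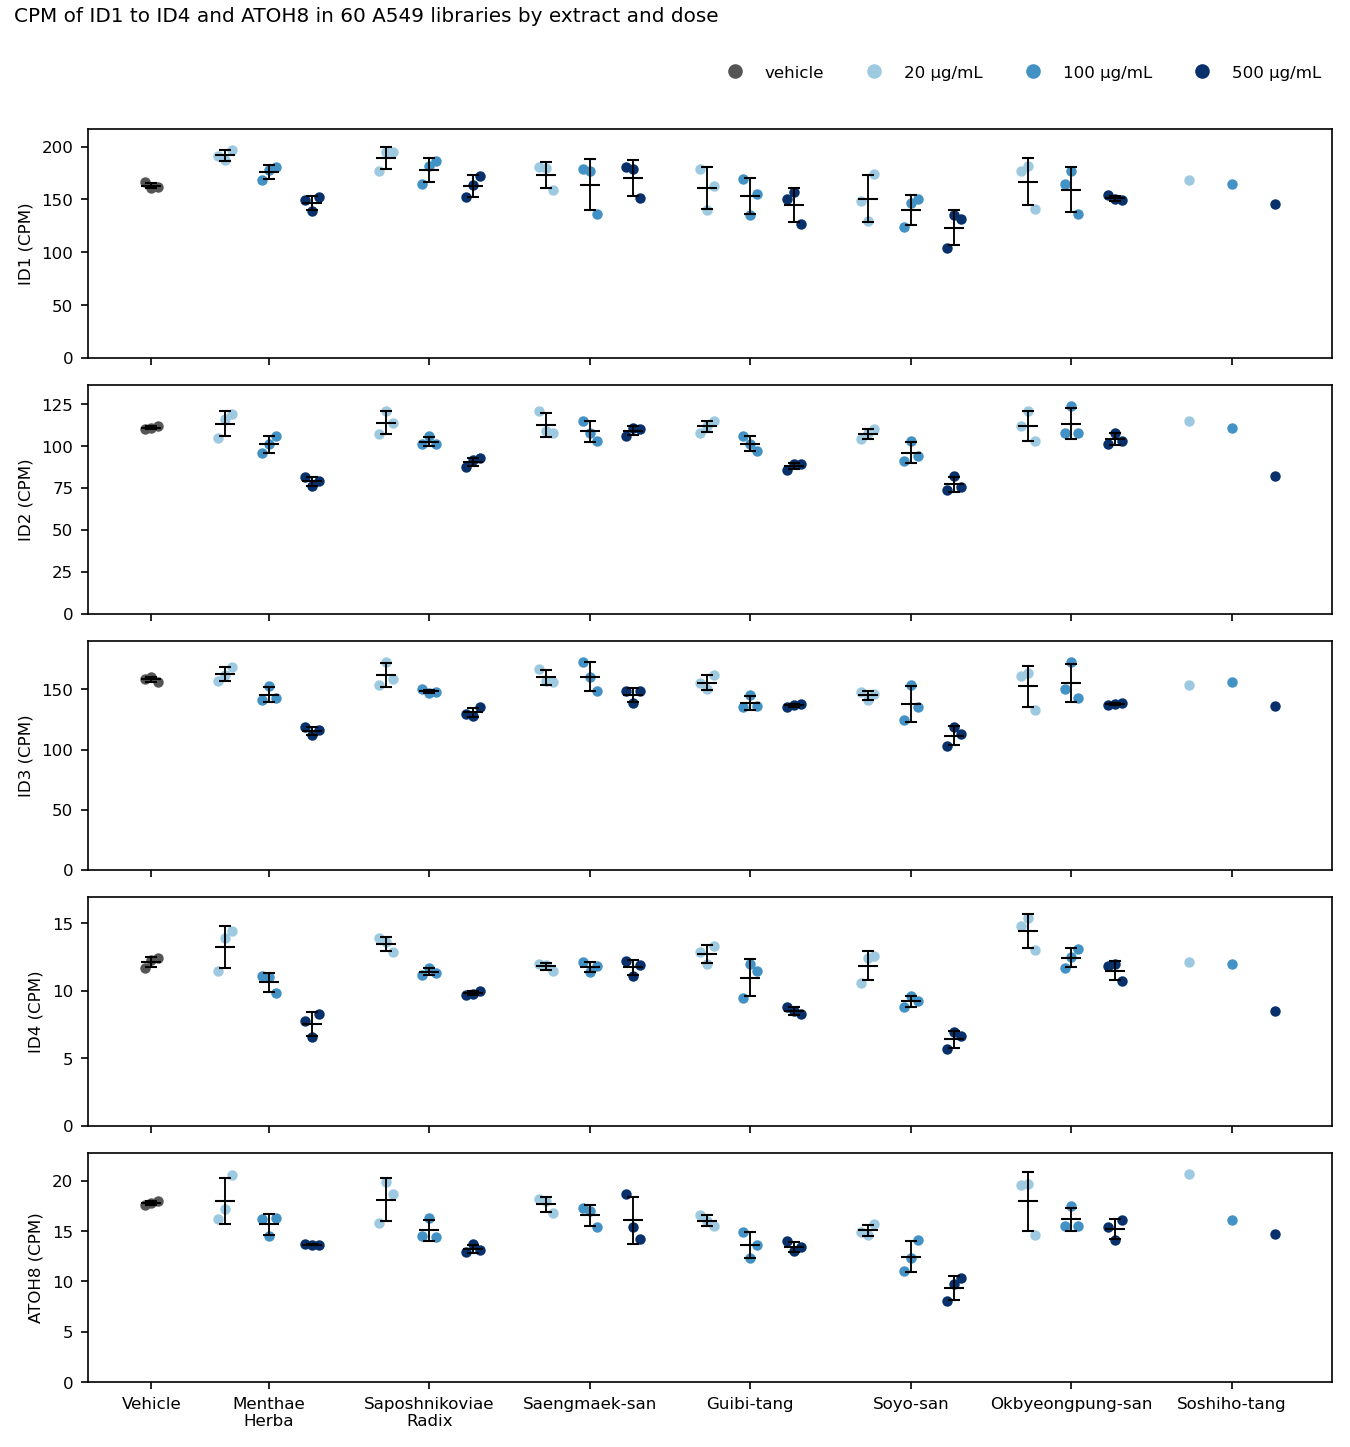
Expression in CPM (vertical axes, from 0) of ID1, ID2, ID3, ID4 and ATOH8 in each of the 60 libraries, by extract and by dose from 20 to 500 µg/mL, with vehicle at the left. Points are libraries and bars are the mean and SD of 3 libraries; in Soyo-san and Menthae Herba the ID4 points step down with dose to means of 6.43 and 7.53 CPM, and in Saengmaek-san they stay near 11.8 CPM.

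Soyo-san at 500 held the ID genes and ATOH8 at their lowest levels of the series. Against 20 of the same decoction, ID4, ATOH8, ID2 and ID3 fell and no member rose. ID4 had 5.73, 6.93 and 6.62 CPM at 500, against 10.6, 12.4 and 12.6 CPM at 20. All 3 libraries at 500 lay below all 3 at 20, and the means of 6.43 ± 0.624 and 11.9 ± 1.06 CPM (SD, n = 3 each) differed 1.85-fold (log2 fold change -0.89 ± 0.0945, SE; adjusted p = 9.68e-09, edgeR quasi-likelihood test with Benjamini-Hochberg adjustment over 17256 genes). In this comparison 0.614% of all genes tested were called in either direction and 0.284% were called lower.

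ATOH8, which BMP induces in liver and endothelial cells, followed ID4. It had 8.03, 9.79 and 10.3 CPM at 500, against 14.9, 14.6 and 15.7 CPM at 20. The highest library at 500 was well under the lowest at 20, and ATOH8 fell 1.62-fold (log2 fold change -0.69 ± 0.0926; adjusted p = 2.32e-06). ID2 had 74.0, 82.1 and 75.4 CPM at 500, against 104, 108 and 110 CPM at 20, also without overlap, and fell 1.40-fold (log2 fold change -0.49 ± 0.0579; adjusted p = 1.79e-07). ID3 had 103, 119 and 113 CPM at 500, against 148, 141 and 146 CPM at 20. These did not overlap either, and ID3 fell 1.31-fold (log2 fold change -0.39 ± 0.0636; adjusted p = 1.47e-04). All 4 genes were called in each of the 6 fits that left out 1 of these libraries.

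The other 6 members did not pass the test in Soyo-san at 500 against 20. ID1 averaged 123 ± 16.6 CPM at 500 and 151 ± 21.9 CPM at 20, and its libraries overlapped (log2 fold change -0.30; adjusted p = 0.0822). BMP6 averaged 11.8 ± 0.826 CPM at 500 and 14.8 ± 0.902 CPM at 20 without overlap (log2 fold change -0.33; adjusted p = 0.0817). GREM1 averaged 8.66 ± 0.872 CPM at 500 and 6.71 ± 1.03 CPM at 20 (log2 fold change 0.36; adjusted p = 0.145). BAMBI averaged 19.6 and 22.3 CPM, SMAD6 62.5 and 69.3 CPM, and SMAD7 17.7 and 16.8 CPM, at 500 and at 20. The 3 libraries at 500 and the 3 at 20 all came after the step in library order, with mitochondrial shares of 14.3 to 19.4% and 13.6 to 17.8%. With a term for library order ID1 (adjusted p = 0.0246) and BMP6 (adjusted p = 0.0370) were called as well. Since all of these libraries lay after the step, the term does not adjust them for order. It could change only the spread shared by the fit.

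Guibi-tang at 500 showed lower ID2, ID4 and ID3 than its own 20, with smaller differences than in Soyo-san that were not tested against it. ID4 had 8.81, 8.47 and 8.27 CPM at 500, against 12.9, 12 and 13.3 CPM at 20. The 2 doses were far apart beside the spread within each, and ID4 fell 1.58-fold (log2 fold change -0.66 ± 0.0912; adjusted p = 4.14e-06). ID2 had 85.9, 89.1 and 89.4 CPM at 500, against 108, 112 and 115 CPM at 20. It fell 1.33-fold without overlap (log2 fold change -0.42 ± 0.0577; adjusted p = 4.14e-06). ID3 had 135, 137 and 138 CPM at 500, against 155, 150 and 162 CPM at 20, and fell 1.19-fold (log2 fold change -0.26 ± 0.0633; adjusted p = 0.0254). Here 0.997% of all genes tested were called in either direction and 0.249% were called lower.

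The call of ID3 in Guibi-tang was lost in 4 of the 6 fits that left out 1 library, with adjusted p up to 0.198: without replicate 1 or 2 of the 500 group and without replicate 2 or 3 of the 20 group. In a fit of the 6 Guibi-tang libraries alone only ID4 was called (adjusted p = 0.0259), and ID2 was not (adjusted p = 0.101). ATOH8 had 14.0, 13 and 13.4 CPM at 500, against 16.6, 16 and 15.5 CPM at 20, and BAMBI 18.8, 18.4 and 20.7 CPM against 22.1, 21.7 and 23.8 CPM. Neither gene overlapped between the doses, and neither passed the test (adjusted p = 0.0596 for ATOH8 and 0.0566 for BAMBI). The share of all genes without overlap was not counted, in this comparison or the others. A lack of overlap is therefore only a description of these libraries. Because the libraries lay on both sides of the step in library order, the doses were also set side by side within each side. After the step ID4 stood at 8.27 CPM in 1 library at 500, against 12.7 CPM as the mean of 2 at 20, and before it at 8.64 CPM as the mean of 2 at 500, against 12.9 CPM in 1 at 20. For ID2 the values were 89.4 and 114 CPM after the step and 87.5 and 108 CPM before it, at 500 and at 20.

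Saengmaek-san and Okbyeongpung-san at 500 gave no called member against their own 20. In Saengmaek-san ID4 had 12.2, 11.1 and 11.9 CPM at 500, against 12, 11.9 and 11.5 CPM at 20, and ID2 had 106, 111 and 110 CPM, against 121, 109 and 108 CPM. Both genes overlapped between the doses. ID3 had 149, 139 and 149 CPM at 500, against 167, 157 and 156 CPM at 20, without overlap and without a call. In edgeR 0% of all genes were called in this decoction, 1 member (ID3) and 2.72% of all genes had an unadjusted p under 0.05, and DESeq2 called 0 members. In Okbyeongpung-san ID4 had 11.8, 12 and 10.7 CPM at 500, against 14.8, 15.4 and 13 CPM at 20. Its 3 libraries at 500 lay below its 3 at 20, and the difference did not pass the test (log2 fold change -0.35 ± 0.0871, adjusted p = 0.152). With a term for library order it did (adjusted p = 0.0327). All of these libraries lay after the step, so the term could change only the spread shared by the fit. In Okbyeongpung-san 0.0985% of all genes were called in either direction and 0% lower, 6 members and 3.84% of all genes had an unadjusted p under 0.05, and DESeq2 called 0 members.

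Whether the dose change differed between decoctions was tested for the pairs whose library names share a first number. The change at 500 against 20 was lower in Guibi-tang than in Saengmaek-san for ID4 (difference of log2 fold changes -0.63 ± 0.126; adjusted p = 0.00584) and for ID2 (-0.35 ± 0.0812; adjusted p = 0.0309). In that test 0.296% of all genes were called in either direction and 0.0464% lower. The difference in ID2 was not called in 6 of the 12 fits that left out 1 library, and neither gene was called in a fit of these 2 decoctions alone. Between Soyo-san and Okbyeongpung-san edgeR called 0 members: ID4 differed by -0.54 ± 0.129 (adjusted p = 0.252) and ID2 by -0.36 ± 0.0815 (adjusted p = 0.166), where 0.0290% of all genes were called. There 4 members and 4.49% of all genes had an unadjusted p under 0.05. DESeq2 called 1 member, for which no share of all genes is given here.

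**Figure D2:**
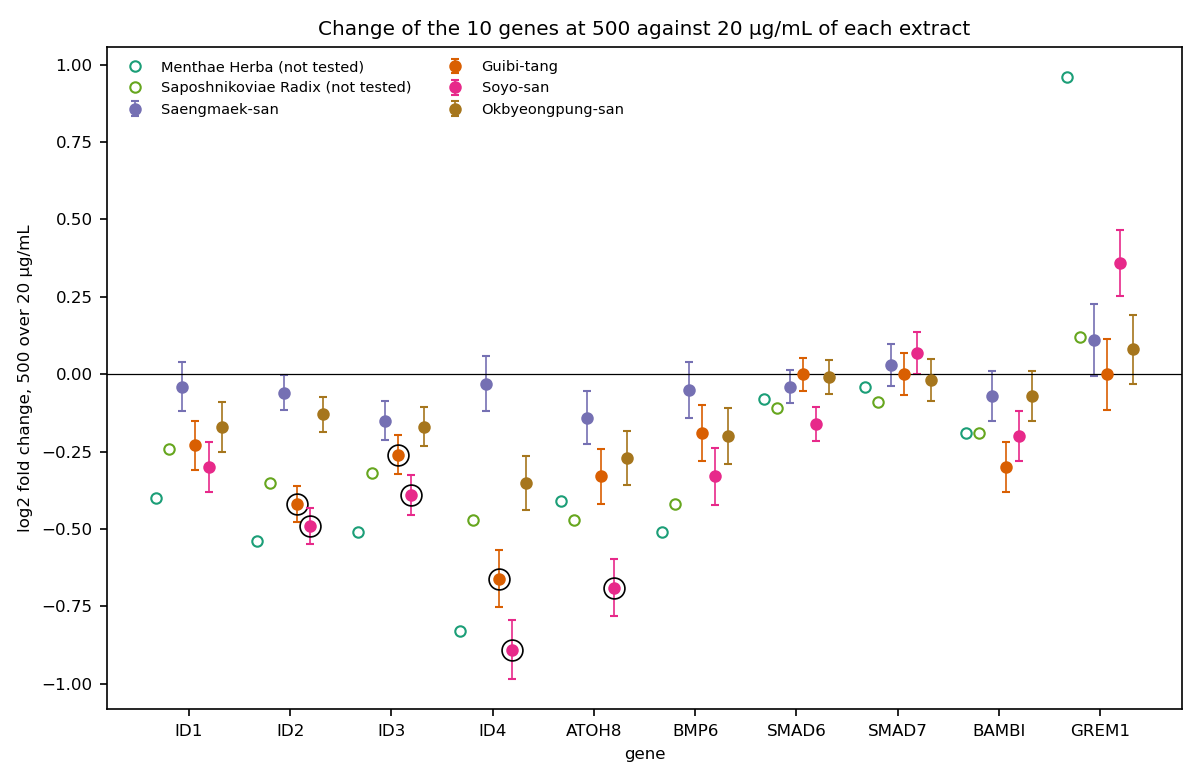
Log2 fold change at 500 over 20 µg/mL (vertical axis) of the 10 genes (horizontal axis) in the 6 extracts with 3 libraries per dose. Bars are standard errors, black rings mark adjusted p under 0.05, and open circles are the 2 herbs that were not tested; ID4 lies lowest in Soyo-san at -0.89, SMAD6 and SMAD7 lie between -0.16 and 0.07 in all 6, and GREM1 lies at 0.96 in Menthae Herba.

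ID4 and ID2 were also low at 500 of both herbs, given here as a description, since these contrasts chose the members. In Menthae Herba, the dried herb of a mint, ID4 had 7.73, 6.55 and 8.32 CPM at 500, against 11.5, 13.9 and 14.4 CPM at 20. ID2 averaged 78.9 ± 2.53 CPM at 500 and 113 ± 7.52 CPM at 20, and ID3 averaged 116 ± 3.89 and 163 ± 6.29 CPM. These 3 genes did not overlap between the doses (log2 fold changes -0.83, -0.54 and -0.51), and 2.43% of all genes were called in that comparison. In Saposhnikoviae Radix, the root of a plant of the carrot family, ID4 averaged 9.81 ± 0.164 CPM at 500 and 13.4 ± 0.505 CPM at 20, ID2 90.6 ± 2.49 and 114 ± 6.88 CPM, and ATOH8 13.2 ± 0.421 and 18.1 ± 2.10 CPM (log2 fold changes -0.47, -0.35 and -0.47). There 0.0811% of all genes were called.

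Soyo-san contains Menthae Herba and Okbyeongpung-san contains Saposhnikoviae Radix. The decoctions and herbs lay on different sides of the step in library order, so the values stand side by side only. At 500 ID2 averaged 77.2 CPM in Soyo-san and 78.9 CPM in Menthae Herba, and ATOH8 averaged 9.37 and 13.6 CPM. At the same label ID2 averaged 104 CPM in Okbyeongpung-san and 90.6 CPM in Saposhnikoviae Radix, and ID4 11.5 and 9.81 CPM. Ordered by the group mean over the 19 groups of 3 libraries, ID2 was lowest in Soyo-san at 500, Menthae Herba at 500, Guibi-tang at 500 and Saposhnikoviae Radix at 500, in that order. Soyo-san and Menthae Herba overlapped there, Menthae Herba and Guibi-tang did not, and Guibi-tang and Saposhnikoviae Radix overlapped. In the order of ATOH8, Soyo-san at 500 was lowest and its 3 libraries lay below those of the next group, Soyo-san at 100 with 12.5 ± 1.58 CPM.

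At 100 no member was called against 20 in the 4 decoctions tested, and several means lay between those at 20 and 500. ID4 in Soyo-san had 10.6, 12.4 and 12.6 CPM at 20, 8.80, 9.62 and 9.24 CPM at 100 and 5.73, 6.93 and 6.62 CPM at 500, and the 3 doses did not overlap. In Guibi-tang ID2 stepped in the same way, with means of 112 ± 3.79 CPM at 20, 101 ± 4.33 CPM at 100 and 88.1 ± 1.94 CPM at 500. At 100 against 20, edgeR called 0 members in the decoctions; 4 members in Guibi-tang, 3 in Soyo-san, 1 in Okbyeongpung-san and 0 in Saengmaek-san had an unadjusted p under 0.05, as did 2.52 to 3.64% of all genes, DESeq2 called 0 members in each, and the share of all genes called was 0.0058% in Guibi-tang and in Soyo-san and 0% in the others. The group mean of ATOH8 was lower at each higher dose in all 4 of these decoctions, and those of ID1, ID4 and BMP6 in 3. Those of ID2, ID3 and BAMBI were so in 2, that of SMAD6 in 1 and those of SMAD7 and GREM1 in 0. How many of all genes follow such an order was not counted. Some steps were small: ATOH8 in Guibi-tang averaged 13.6 ± 1.29 CPM at 100 and 13.5 ± 0.531 CPM at 500, with overlap. In Saengmaek-san its libraries overlapped between all doses. The herbs, whose values chose members, and Soshiho-tang are left out of these counts.

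Soshiho-tang had 1 library per dose, so its values carry no test. ID4 had 12.1 CPM at 20, 12 CPM at 100 and 8.51 CPM at 500, and ID2 had 115, 111 and 82.1 CPM at these doses. The library at 500 lay below the 3 vehicle libraries for both genes. ATOH8 had 20.7 CPM at 20, the highest value of the 60 libraries, 16.1 CPM at 100 and 14.7 CPM at 500.

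**Figure D3:**
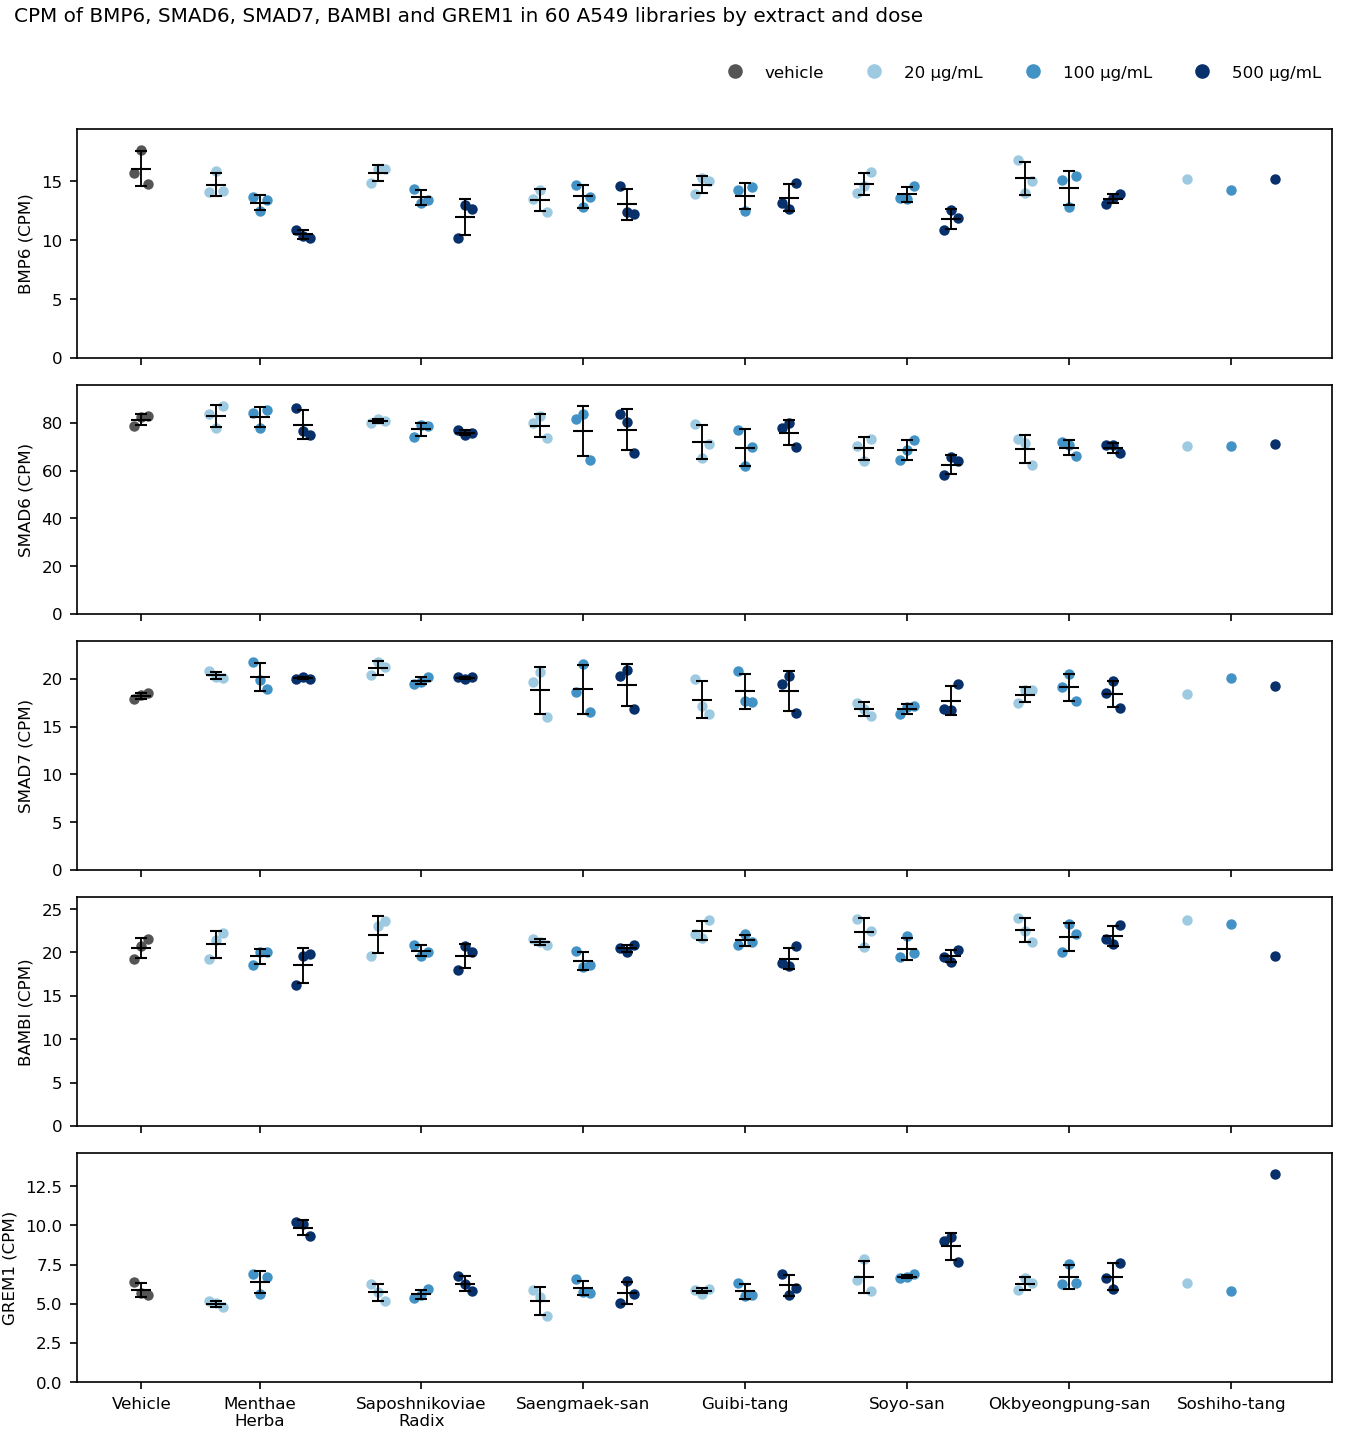
Expression in CPM (vertical axes, from 0) of BMP6, SMAD6, SMAD7, BAMBI and GREM1 in each of the 60 libraries, by extract and by dose from 20 to 500 µg/mL, with vehicle at the left. Points are libraries and bars are the mean and SD of 3 libraries; GREM1 stands out at 500 of Soshiho-tang (13.3 CPM), Menthae Herba (mean 9.85 CPM) and Soyo-san (mean 8.66 CPM).

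BMP6 and GREM1 are the secreted ligand and antagonist among the members. The values of Menthae Herba, which chose GREM1, are a description. There BMP6 had 10.9, 10.4 and 10.2 CPM at 500, against 14.1, 15.9 and 14.2 CPM at 20, and GREM1 had 10.2, 10.1 and 9.30 CPM, against 5.2, 5.02 and 4.80 CPM. Every library at 500 lay below those at 20 for BMP6 and above them for GREM1. GREM1 reached 13.3 CPM in the Soshiho-tang library at 500, the highest of all 60, against 5.83 CPM at 100 and 6.32 CPM at 20, while BMP6 was at 15.2 CPM at both 500 and 20 there. In Guibi-tang GREM1 averaged 6.17 ± 0.669 CPM at 500 and 5.83 ± 0.159 CPM at 20, with overlap. In the 4 decoctions with 3 libraries per dose the mean of GREM1 at 500 was below that at 20 in 0 and that of BMP6 in 4, with no call for either gene.

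SMAD6 and SMAD7, the inhibitory SMADs that block receptors and SMAD complexes, gave no called change with dose at 500 against 20 in the 4 decoctions tested. In Guibi-tang SMAD6 averaged 75.8 ± 5.22 CPM at 500 and 72.1 ± 7.10 CPM at 20, and SMAD7 18.7 ± 2.07 and 17.8 ± 1.93 CPM. Library order went with both genes: among the libraries at 20 and vehicle, SMAD6 had 62.3 to 73.8 CPM (median 70.8, n = 10) after the step and 78.0 to 87.2 CPM (median 81.2, n = 12) before it, without overlap, and SMAD7 had medians of 17.4 and 20.1 CPM. ID1 had medians of 161 CPM after and 180 CPM before the step and ATOH8 of 15.8 and 17.9 CPM, with overlap in both. The medians of ID4 were 12.5 CPM after and 12.7 CPM before it, and those of ID2 were 111 and 112 CPM. CPM totals include the mitochondrial counts, whose share ran higher after the step, so similar medians do not show that the step left these genes alone. In Soyo-san against vehicle, below, the falls of ID4 and ID2 were larger with a term for library order.

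**Figure D4:**
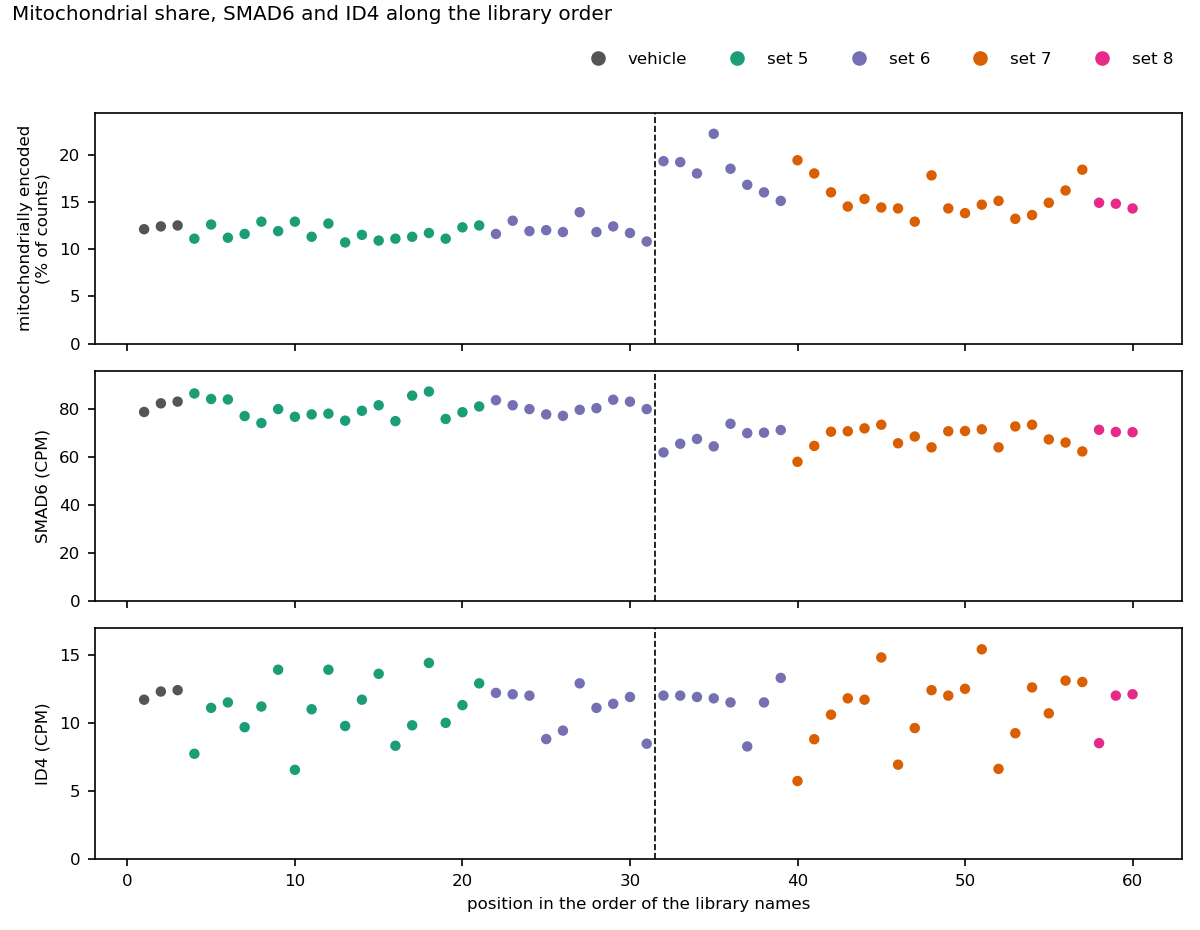
Share of counts from mitochondrially encoded genes (upper panel, %), SMAD6 (middle panel, CPM) and ID4 (lower panel, CPM) in the 60 libraries. Libraries are in the order of their names (horizontal axis), and CPM totals include the mitochondrial counts. Colours give the vehicle and the first number of the library name (5 for the herbs, 6 for Saengmaek-san and Guibi-tang, 7 for Soyo-san and Okbyeongpung-san, 8 for Soshiho-tang), and the dashed line is the step after library 31; SMAD6 has medians of 70.8 CPM after and 81.2 CPM before it among libraries at 20 and vehicle, and ID4 ones of 12.5 and 12.7 CPM.

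Against vehicle, Soyo-san at 500 had 7 lower members and 1 higher one. The same 3 vehicle libraries took part in the earlier herb comparisons that chose members. Calls against vehicle in any decoction are therefore not independent of that choice. BMP6, for example, had its highest group mean in vehicle (16.1 CPM). ID4 had 5.73, 6.93 and 6.62 CPM in Soyo-san and 11.7, 12.3 and 12.4 CPM in vehicle, and ATOH8 had 8.03, 9.79 and 10.3 CPM in Soyo-san and 17.6, 17.8 and 18 CPM in vehicle. Neither overlapped, and both fell by 0.89 on the log2 scale (adjusted p = 1.91e-09 for ID4 and 8.81e-10 for ATOH8). ID2 (-0.49), ID3 (-0.47), BMP6 (-0.41), ID1 (-0.37) and SMAD6 (-0.34) fell too, with adjusted p from 5.43e-08 to 0.00264, and GREM1 rose by 0.60 (adjusted p = 1.83e-04). In this comparison 6.02% of all genes were called, 2.91% lower and 3.11% higher. The call of ID1 was lost without replicate 1 of the 500 group (adjusted p = 0.0547). With the replicate block ID1 and BMP6 were no longer called.

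This comparison crosses the step in library order, with mitochondrial shares of 14.3 to 19.4% in Soyo-san at 500 and 12.1 to 12.5% in vehicle. In the fit without a term for the step the extract and the step cannot be told apart. Vehicle and Soyo-san also belong to different library-name sets, and the labels give a DMSO percentage for vehicle only. Neither can be told apart from the extract, here or in the other comparisons against vehicle. Both stay in the fit with a term for library order below. A term for library order, set by the Saengmaek-san and Guibi-tang libraries that lie on both sides, gave -1.05 for ID4, -0.88 for ATOH8, -0.59 for ID2, -0.59 for ID3, -0.54 for BMP6 and -0.24 for SMAD6, all called, and GREM1 stood at 0.60. ID1 was no longer called (log2 fold change -0.24, adjusted p = 0.0577). The share of all genes called with this term is not given here for this comparison, so these calls stand without it.

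Guibi-tang at 500 against vehicle had 4 lower members and 0 higher ones, where 4.42% of all genes were called, 1.78% lower. ID4 had 8.81, 8.47 and 8.27 CPM in Guibi-tang and 11.7, 12.3 and 12.4 CPM in vehicle and fell by 0.54 on the log2 scale (adjusted p = 6.92e-05). Replicates 1 and 2 of Guibi-tang at 500 lay before the step in library order, as vehicle did, and replicate 3, the lowest of the 3 for ID4, lay after it. ATOH8 fell by 0.43 (adjusted p = 0.00110), ID2 by 0.35 (adjusted p = 5.73e-05) and ID3 by 0.23 (adjusted p = 0.0218), and the call of ID3 was lost in 5 of the 6 fits that left out 1 library: any of the 3 vehicle libraries, or replicate 1 or 2 of Guibi-tang. Okbyeongpung-san at 500 against vehicle had 1 called member, SMAD6, at 70.7, 70.7 and 67.3 CPM, against 78.7, 82.3 and 83.0 CPM in vehicle (log2 fold change -0.21 ± 0.0535; adjusted p = 0.0163), where 3.39% of all genes were called, 1.43% lower. With a term for library order SMAD6 was not called there (log2 fold change -0.11; adjusted p = 0.199), and without vehicle replicate 2 or 3 or Okbyeongpung-san replicate 3 it was not called either (adjusted p up to 0.101). Saengmaek-san at 500 against vehicle gave 0 called members in edgeR and in DESeq2, where 0.614% of all genes were called. There 1 member (BMP6) had an unadjusted p under 0.05, as did 9.65% of all genes.

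The other genes of the pathway were read from a list. Of 83 further genes for BMP and TGF-beta ligands, receptors, SMADs, antagonists, brakes, other BMP-induced genes and E proteins, 63 passed the filter on low counts. At 500 against 20, 1 of the 63 was called in Guibi-tang, where 0.997% of all genes were called, and 0 in Soyo-san (0.614%), Okbyeongpung-san (0.0985%) and Saengmaek-san (0%). GDF15, a stress-induced ligand of the family, averaged 24.1 ± 2.40 CPM at 500 and 17.0 ± 1.45 CPM at 20 of Guibi-tang and rose there by 0.43 on the log2 scale (adjusted p = 8.19e-04). The median log2 fold change of the 63 genes was -0.02 in Soyo-san and -0.02 in Guibi-tang, and that of all genes tested was 0.0018 and 0.0011. The receptors that BMP ligands use were present, with medians over the 60 libraries of 119 CPM for BMPR2, 63.1 CPM for BMPR1A, 34.1 CPM for BMPR1B and 21.5 CPM for ACVR1. Of the SMADs that carry the BMP signal SMAD5 was at a median of 80.4 CPM, SMAD1 at 10.7 CPM and SMAD9 at 1.38 CPM. Of the other ligands BMP4 was at 4.90 CPM, BMP2 at 0.415 CPM and BMP7 at 0.315 CPM. HAMP, the iron hormone that BMP6 controls in liver, was at a median of 0 CPM.

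Against vehicle more of these genes passed the test, in both directions and across the step in library order. In Soyo-san at 500, 8 of the 63 fell and 4 rose, in Guibi-tang 5 fell and 4 rose, in Okbyeongpung-san 3 fell and 4 rose, and in Saengmaek-san 1 fell and 0 rose. The shares of all genes called in these comparisons were 6.02%, 4.42%, 3.39% and 0.614%, in the same order. SMAD9 averaged 0.923 ± 0.0798 CPM in Soyo-san at 500 and 2.16 ± 0.126 CPM in vehicle and fell by 1.19 on the log2 scale (adjusted p = 1.41e-04). It was also called in Guibi-tang (-0.78; adjusted p = 0.0131) and Okbyeongpung-san (-0.69; adjusted p = 0.0361). DLX3, a homeobox gene at 0.519 ± 0.208 CPM in vehicle, fell in Soyo-san (-1.61), Guibi-tang (-2.08) and Okbyeongpung-san (-1.98). HEY1 (-0.58), BMPR1B (-0.20), TGFBR2 (-0.19) and the repressor SKI (-0.17) fell in Soyo-san as well, while LDLRAD4 (0.49), JUNB (0.28), SMAD3 (0.17) and TCF12 (0.16) rose there. TCF12, an E protein that ID proteins bind, averaged 102 ± 0.469 CPM in Soyo-san and 94.1 ± 3.08 CPM in vehicle (adjusted p = 0.0131). SMURF1, a ubiquitin ligase for SMADs, was called lower in all 4 decoctions (-0.20 to -0.13). In Guibi-tang the activin receptor ACVR2A (-0.34) and the activin subunit INHBB (-0.30) fell, and LDLRAD4 (0.61), MSX1 (0.38), GDF15 (0.35) and TCF12 (0.16) rose. In Okbyeongpung-san BMP8B (0.27), JUNB (0.27), PMEPA1 (0.21; adjusted p = 2.70e-04) and TCF12 (0.18) rose.

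ID2, ID3 and ID4 were each other's 2 nearest genes in expression, and ID1 was not among the 3 nearest of any of them. Likeness was measured as Pearson's r of log2 CPM over the 54 extract libraries with 3 per dose, after taking out the mean of the 6 libraries that share a library-name set and a replicate number, among 10733 genes. These points share doses and preparations and include the herbs whose values chose members, which partly fixes how close the members lie, so r is a description. The replicate 2 libraries of Saengmaek-san and Guibi-tang lay on both sides of the step in library order. Taking out their mean leaves that difference in r. ID2 lay closest to ID3 (r = 0.93) and ID4 (0.93), and then to HK1, hexokinase 1 (0.88). ID3 and ID4 reached 0.88, and the adhesion receptor ADGRG1 came next for ID3 (0.86). ATOH8 lay closest to ID4 (0.85), ID2 (0.85) and ID3 (0.83). ID1 lay closest to S100P, a calcium-binding protein (0.83), ATOH8 (0.81) and ID3 (0.80). Over the 36 libraries of the 4 decoctions alone, a setting added after the data were seen, ID2 lay closest to ID4 (0.92) and ID3 (0.90), while the deiodinase DIO2 came second for ID4 (0.90) and ATOH8 second for ID3 (0.86). ATOH8 then lay closest to ID4 (0.88), SAMD11 (0.87) and ID2 (0.86), and ID1 to ATOH8 (0.82).

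The feedback genes had other neighbours. SMAD6 lay closest to LPCAT1, a phospholipid acyltransferase (0.73), UNC93B1 (0.71) and ID1 (0.70). BAMBI lay closest to BASP1 (0.78) and to the TNF receptor family members TNFRSF10D (0.76) and TNFRSF1A (0.75), and had an r of 0.70 with ID2. SMAD7 had no close neighbour, with CDK2, SERPINB9 and ALG8 at 0.59. BMP6 lay closest to the junction protein JUP, the orphan receptor NR4A3 and the deiodinase DIO2 (0.80 each). GREM1 lay closest to TIPARP (0.83) and CYP1B1 (0.82), which AhR induces, and then to MEIOC (0.81), and its r with the ID genes was negative, from -0.70 for ID1 to -0.64 for ID2. Over the 36 decoction libraries GREM1 lay closest to MEIOC (0.73), KLF7 (0.68) and VPS29 (0.64), so TIPARP and CYP1B1 were among its 3 nearest only with the herbs, and its r with the ID genes ran from -0.62 for ID1 to -0.45 for ID2.

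**Figure D5:**
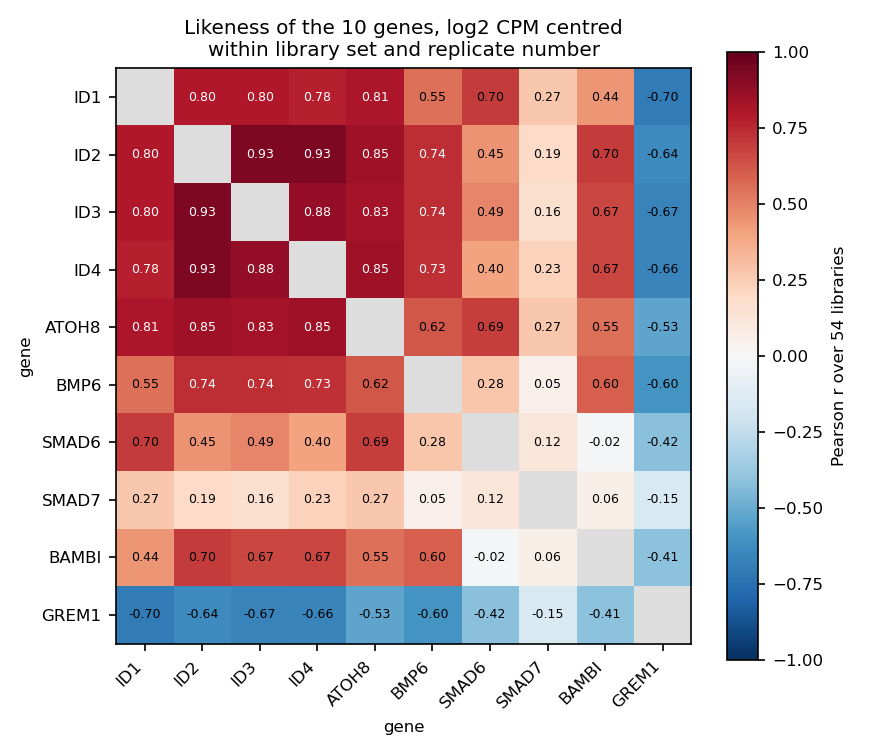
Pearson's r between the 10 genes over 54 extract libraries, from log2 CPM after taking out the mean of each library-name set and replicate number; rows and columns are the genes and colour runs from -1 to 1. The block of ID1, ID2, ID3, ID4 and ATOH8 holds values from 0.78 to 0.93, SMAD7 stays at or under 0.27 and GREM1 is negative with every other gene.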

How the data were processed

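Directional RNA sequencing covered 60 A549 libraries. Per the submitters' processing notes, reads went through FastQC 0.11.9, Trim Galore 0.6.5, STAR 2.7.3a and RSEM 1.3.3 on hg38 (GRCh38). Expected counts from RSEM were deposited by the authors, 60675 genes in all. No source used here gives the annotation release or the strand setting. Counts were rounded (10.5% of values were not whole). Symbols came from a table of current human gene names and GENCODE 29.

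The test was edgeR 4.0.16 (R 4.3.3, limma 3.58.1): 1 quasi-likelihood fit of 57 libraries in 19 groups, TMM scaling, filterByExpr (17256 genes, all 10 members among them), Benjamini-Hochberg adjustment within each of 14 comparisons and calls at adjusted p under 0.05. Soshiho-tang, with 1 library per dose, stayed out of the fit. The fit was tested on simulated data. Log2 CPM used a prior count of 2. Alternatives were RLE scaling, no filter, a replicate block, a term for library order, only the groups compared, DESeq2 1.42.0 and leaving out each library. Library pairs within groups differed beyond sampling noise (chi-square per degree of freedom 1.88 to 73.6, 57 pairs). Same-numbered libraries deviated together (every r over 0.1) in Saengmaek-san at 500 and at 100 against 20 (r = 0.118 to 0.350). They did so in Guibi-tang at 100 against 20 as well (0.104 to 0.358). In these comparisons same-numbered libraries also lay on the same side of the step in library order. No label says that they were pairs, and the main fit had no block. Labels do not say whether libraries were separate cultures, so p-values measure the spread between these libraries. The members and gene lists were chosen with earlier results of these data known. All 10 members were named, with called list genes (up to 6 per direction by size of change) and the 3 nearest genes by correlation.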

Additional observations from a re-analysis of the deposited data

Results flagged for a closer look

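The change at 500 against 20 differed between Guibi-tang and Saengmaek-san by a test of the difference itself for 2 genes. ID4 differed by -0.63 on the log2 scale (SE 0.126; adjusted p = 0.00584), and in Guibi-tang 3 of 3 libraries at 500 lay below those at 20, while Saengmaek-san overlapped. ID2 differed by -0.35 (SE 0.0812; adjusted p = 0.0309), with the same pattern. Libraries of both decoctions lay on both sides of the step in library order, with mitochondrial shares of 10.8 to 16.8% in Guibi-tang at 500, 13.9 to 19.2% in Guibi-tang at 20, 11.6 to 18% in Saengmaek-san at 500 and 11.7 to 18.5% in Saengmaek-san at 20. With a term for library order both genes were called as well. ID2 was not called in 6 of the 12 fits that left out 1 library (adjusted p up to 0.205), ID4 was called in all 12, and neither was called with only the groups compared.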

How the results depend on the processing

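Of 528 recomputed log2 fold changes of members, 482 kept their direction and their side of the threshold. Of the others, 30 were no longer called, 16 became called and 0 turned round. Called changes of every comparison are counted. Changes not called are counted from 0.1 in size at 500 against 20 of Guibi-tang, Soyo-san and Okbyeongpung-san only. ID2, ID4 and ATOH8 at 100 against 20 in Guibi-tang and Soyo-san are counted too. Other changes that were not called were left out. The number of called members in Guibi-tang at 500 against 20 was 3, and it was 6 without the filter, 5 with DESeq2 and 1 with only the groups compared. In Okbyeongpung-san it was 0 at 500 against 20 and 1 with a term for library order, and against vehicle it was 1, with 2 without the filter, 0 with the replicate block, 3 with the library order term and 5 with only the groups compared. Saengmaek-san against vehicle had 0 and 1 with the library order term. The difference between Guibi-tang and Saengmaek-san had 2 called members and 0 with only the groups compared; that between Soyo-san and Okbyeongpung-san had 0, with 2 without the filter and 1 each with the replicate block, the library order term and DESeq2. Leaving out 1 library gave 2 to 4 for Guibi-tang and 4 to 6 for Soyo-san at 500 against 20. Against vehicle it gave 3 to 5 for Guibi-tang, 7 to 8 for Soyo-san and 0 to 1 for Okbyeongpung-san. It gave 1 to 2 for the difference between Guibi-tang and Saengmaek-san. Smaller shifts under the other settings are not all listed here. The cause of these shifts was not tested. Soyo-san and Okbyeongpung-san lay wholly after the step, so at 500 against 20 the library order term could change only the shared spread there. For DESeq2 no count over all genes is given here, so its member counts stand without that share. The same holds for the fits that left out 1 library. It also holds for every other setting of a comparison without a count over all genes in the next paragraph.

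Counts over all genes moved more. At 500 against 20 they were 172 in Guibi-tang, against 396 without the filter, 269 with the replicate block and 14 with only the groups compared; 106 in Soyo-san, against 178, 142 and 34, and 184 with the library order term; 17 in Okbyeongpung-san, against 93 without the filter; and 0 in Saengmaek-san, against 53 without the filter. Against vehicle they were 1039 in Soyo-san (282 with the replicate block, 2132 with only the groups compared), 762 in Guibi-tang (242 with only the groups compared, 1724 with the library order term), 585 in Okbyeongpung-san (122 with the block, 2854 with only the groups compared) and 106 in Saengmaek-san (0 with only the groups compared, 376 with the library order term). For the differences between decoctions they were 51 (5 with only the groups compared, 155 without the filter) and 5 (2 and 78).

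Same-numbered libraries deviated together (every r over 0.1) in Saengmaek-san at 500 and 100 against 20 and in Guibi-tang at 100 against 20. The replicate block changed no call of a member there. Same-numbered libraries also lay on the same side of the step there, and no label says that they were pairs. In the other comparisons between groups not every r was over 0.1. With the block Guibi-tang at 500 against 20 gave 4 called members, Soyo-san 4, Guibi-tang against vehicle 3 (ID3 lost, adjusted p = 0.298) and Soyo-san against vehicle 6, where ID1 (adjusted p = 0.0672) and BMP6 (adjusted p = 0.339) were no longer called. Depth limits ID4 and GREM1 most.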
